A study of Mus musculus with 6 samples.

Results

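The cytosolic ribosomal protein genes are those whose symbol on the array starts with Rpl or Rps and a digit, together with the acidic stalk genes Rplp0 to Rplp2 and Rpsa. Kinase genes of the Rps6k family and symbols of pseudogenes were left out, and the brightest row by the mean over all arrays stood for a gene. Of 21506 genes tested, 45 met this rule. They comprised 17 of 46 canonical large subunit genes, 18 of 31 canonical small subunit genes, 7 paralogues and 3 other symbols that the rule takes. Those 3 were Rps19bp1, whose product binds the protein Rps19 and is not part of the ribosome, Rps23rg1 and Rpl32l. The other canonical genes had no row with a single symbol here and were not analysed, so the subunit values below describe part of each subunit.

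The samples were total RNA from left ventricles of 6 male mice, 3 sickle and 3 control, on 1 Affymetrix Mouse Gene 2.0 ST array per mouse. The labels state an age of 10 to 14 weeks for the experiments. Both lines have a mixed B6;129 background, and in both the mouse globin genes are replaced by human ones: the alpha-globin allele is the same knock-in, Hbatm1(HBA)Tow. The sickle mice are homozygous for Hbbtm2(HBG1,HBB*)Tow, which carries the sickle form of human beta-globin beside human gamma-globin. The control mice are homozygous for Hbbtm3(HBG1,HBB)Tow, with the non-sickling form, so neither group has wild-type mouse haemoglobin.

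The cytosolic ribosome reads mRNA on its small subunit and joins amino acids on its large subunit. Each protein of a subunit is present in a fixed number of copies, and the mRNAs of these proteins are known for a tract of C and T bases at their 5′ end through which mTOR signalling sets their translation. The heart and skeletal muscle also make Rpl3l, a paralogue that takes the place of Rpl3 in the large subunit.

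The samples held heart muscle RNA: all 9 cardiomyocyte markers were bright, with a median log2 level of 13.22. That list was not made to tell the left ventricle from other parts of the heart. Of 5 atrial markers, 3 were highest in control replicate 3: Sln had 8.08 there against 3.10 to 3.36 in the other arrays, Myl7 7.75 against 4.31 to 4.78 and Myl4 5.93 against 5.02 to 5.55. Nppa and Bmp10, also on that list, were not highest there. Nppa had 12.63, 12.72 and 12.74 in control and 12.97, 13.175 and 13.655 in sickle. Bmp10 had 4.82, 5.33 and 5.01 in control and 4.71, 4.84 and 4.57 in sickle. The part of atrial tissue in control replicate 3 was not tested. Without control replicate 3, 0 of the 45 genes passed, and Rpl3l and Rps4x differed by -0.64 and 0.32. The upper quartile of the log2 values was 7.37 in sickle replicate 3 and 7.27 to 7.30 in the other arrays. RMA normalisation gives all arrays 1 distribution, so this is no measure of RNA quality. Sickle replicate 3 stood apart on the first principal component (43.9% of the variance, a score of 43.3 against -15.1 to -2.31). In it, 375 of the 21506 genes lay over 2-fold from the mean of its group mates. Among the 45 ribosomal protein genes, 0 did so in any array. With so small a share over all genes, a count of 0 among 45 does not set them apart. The summed linear level of reticulocyte and erythroid markers was higher in all sickle arrays (6174 to 8820 against 2381 to 2967 in control). By the mean 15 of 15 were higher, and 11 of 15 had groups without overlap (73.3%, beside 16.0% of all genes). Not every marker was higher in each sickle array: Tfrc had 8.11 in sickle replicate 3 against 8.49 to 9.42 in control. Macrophage and fibroblast markers were highest in sickle replicate 3, where their medians were 1.33 and 1.52 above the control mean. Lymphocyte (9 of 10) and cell cycle (7 of 7) markers were also higher by the mean in sickle. Reticulocytes and these cells also hold ribosomal protein mRNA, and the part of such cells in the values below was not tested. In tissue RNA, a change in the number of cells of a type and a change in RNA per cell cannot be told apart.

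No ribosomal protein gene passed the test between sickle and control. With limma on the log2 values and Benjamini-Hochberg adjustment over all genes, 0 of 45 had an adjusted p under 0.05, against 0.181% of all genes. The smallest adjusted p among them was 0.415, for Rps4x. At an unadjusted p under 0.05 there were 6 of 45 (background 8.69%). Of these, 2 were higher (background 4.30%) and 4 lower (background 4.38%), and 1, Rps4x, was under 0.01 (background 2.26%). Sickle and control arrays did not overlap for 9 of 45 genes, beside 16.0% of all genes. In 3 of them sickle was higher (7.61% of all genes) and in 6 lower (8.36% of all genes). Among the 35 canonical genes alone, 3 were higher and 2 lower without overlap (14.3% together). At an unadjusted p under 0.05 in limma, 2 canonical genes were higher and 1 lower. The median difference over the 45 genes was -0.0014 on the log2 scale, beside -0.0067 over all genes, and 22 were higher and 23 lower by the mean. The differences ranged from -0.63, for the paralogue Rpl3l, to 0.33. In size, 9 of 45 were larger than 0.25, beside 3621 of all 21506 genes, and 6 of the 35 canonical genes were.

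**Figure D1:**
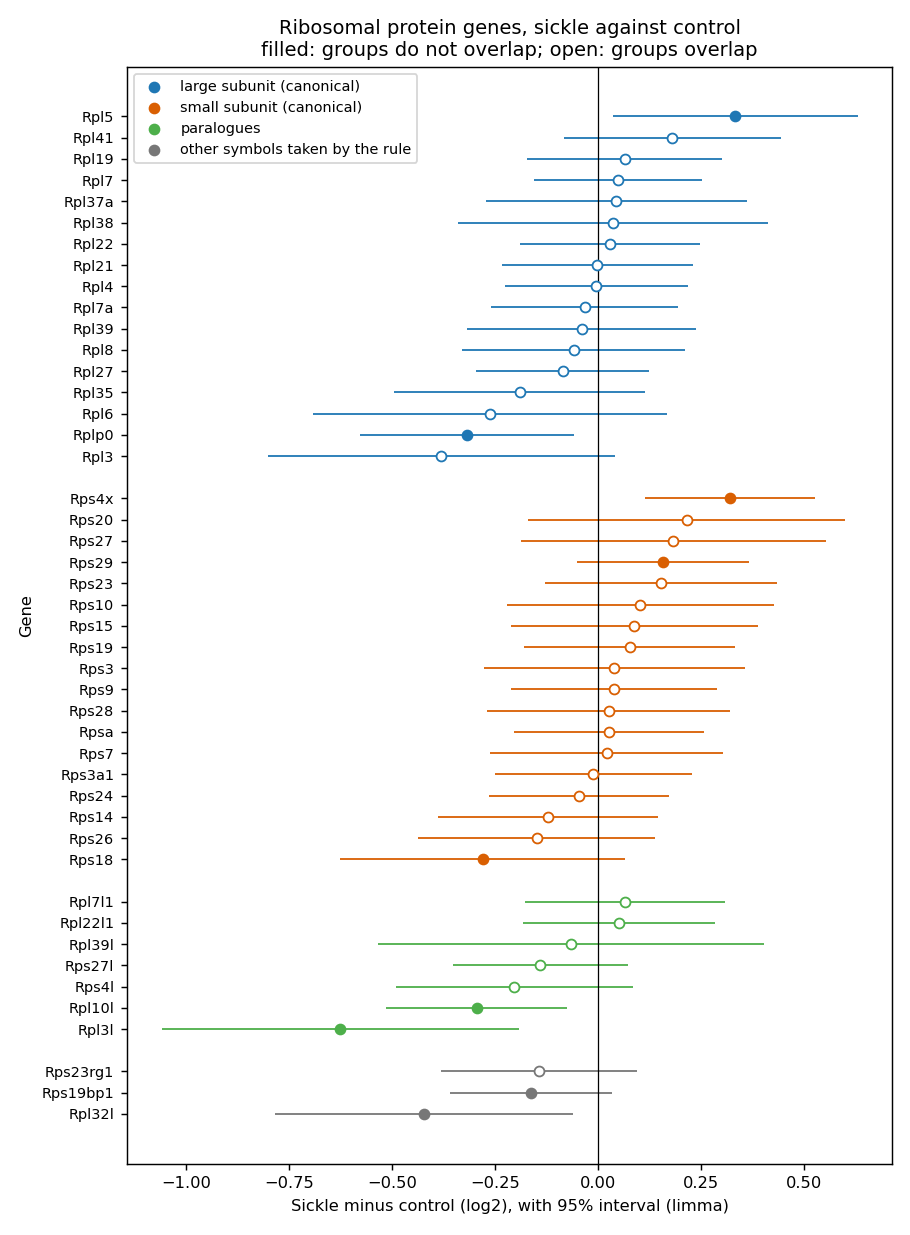
Sickle minus control differences on the log2 scale for the 45 genes, one per line, with the 95% interval of the limma fit. Filled points are the 9 genes whose groups do not overlap, of which 6 have intervals that exclude 0. The intervals of the filled genes Rps18, Rps29 and Rps19bp1 and of the other 36 genes all span 0. Rpl3l at -0.63 is the lowest point and Rpl5 at 0.33 the highest.

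The canonical large and small subunit genes were set side by side. The 17 large subunit genes had a median difference of -0.0041, with 7 higher and 10 lower by the mean. The 18 small subunit genes had a median of 0.039, with 13 higher and 5 lower. The large minus small difference of these medians was -0.044 on the log2 scale. The same contrast was also taken from medians within each array, relative to the control mean. It was -0.055, 0.033 and 0.031 in control replicates 1, 2 and 3 and -0.070, -0.037 and -0.082 in sickle replicates 1, 2 and 3. Means of these values need not give the -0.044, which was taken from the differences of single genes. The groups overlapped, and the SD of the array values within a group was 0.039. That SD is the spread of single arrays and not the error of a difference between groups. No test was made of a value over a set of genes.

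Among the 17 canonical genes at a mean log2 level of 8 or more, a limit chosen after the values were seen, the sickle arrays were spread more widely than the control arrays. The median of these genes relative to the control mean was 0.057, -0.12 and 0.079 in sickle replicates 1, 2 and 3, and -0.0019, 0.012 and 0.0089 in the control replicates. Over all genes at that level the same medians were -0.0029, -0.0072 and -0.039 in the sickle arrays. In sickle replicate 2, 14 of the 17 genes were below their control mean, against 4 of 17 in sickle replicate 3. These shares were not computed over all genes at that level. Sickle replicate 2 held the lowest value of the 6 for 11 of the 17 genes, where this held for 14.4% of all genes at that level. Sickle replicate 3 held the highest for 7 of the 17 (27.1% of all genes at that level). The SD between the 3 sickle arrays exceeded that between the 3 control arrays for 15 of 17 genes (73.3% of all genes at that level), with medians of 0.145 and 0.056, beside 0.126 and 0.075 over all genes at that level. The low array was not the one that stood apart over all genes.

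**Figure D2:**
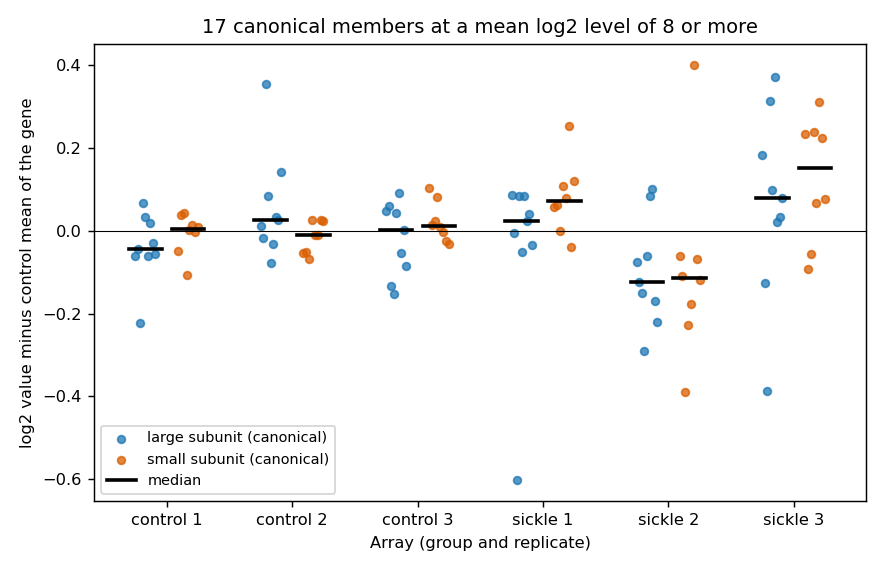
Log2 value minus the gene's control mean for the 17 canonical genes at a mean level of 8 or more, one point per gene and array, with black bars at the median of each subunit. The points of both subunits sit mostly below 0 in sickle replicate 2 (medians -0.12 and -0.11) and mostly above 0 in sickle replicate 3 (0.079 and 0.15).

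Rpl38, which is known to aid translation of some patterning mRNAs, shows this spread. Its log2 values were 10.95, 10.97 and 10.73 in control and 10.97, 10.59 and 11.20 in sickle. The sickle arrays held both the lowest and the highest value, and the difference was 0.04 ± 0.16 (SE). Rps26, which lies where mRNA leaves the ribosome, had 10.25, 10.14 and 10.23 in control and 10.21, 9.82 and 10.15 in sickle. The groups overlapped, and replicate 2 alone set the mean apart (difference -0.15 ± 0.12; -0.03 without it). Rps19, the gene most often mutated in the red-cell disorder Diamond-Blackfan anaemia, had 8.69, 8.68 and 8.84 in control and 8.79, 8.68 and 8.97 in sickle, with overlap and a difference of 0.08 ± 0.11. Rpsa, a small subunit protein also described as a laminin receptor, differed by 0.03 ± 0.10, with a 95% interval from -0.20 to 0.26. Rpl4, the brightest of the 45 rows, had 12.09, 11.97 and 12.10 in control and 12.00, 11.99 and 12.15 in sickle (difference -0.0041 ± 0.095, interval -0.23 to 0.22). Of the 17 bright canonical genes, Rps4x alone had groups that did not overlap (5.88%), beside 24.4% of all genes at that level.

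Rps4x is the X-linked gene of small subunit protein S4. Its log2 values were 9.84, 9.82 and 9.83 in control and 10.08, 10.23 and 10.14 in sickle. All 3 sickle arrays lay above the control arrays, and sickle replicate 2, low for most bright canonical genes, held the highest value. The means were 9.83 ± 0.01 and 10.15 ± 0.08 (SD, n = 3), a 1.25-fold difference (0.32 ± 0.09, SE, 95% interval 0.11 to 0.53). It did not pass after adjustment over all genes in limma (adjusted p = 0.415). Over the leave-one-out fits its difference ranged from 0.28 to 0.36. Its paralogue Rps4l had 6.19, 6.43 and 6.16 in control and 6.24, 5.96 and 5.98 in sickle (difference -0.20 ± 0.12), with overlap, and the difference was -0.12 without control replicate 2.

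Rpl3l had the largest difference of the 45 genes. Its log2 values were 9.94, 9.88 and 9.88 in control and 9.505, 9.505 and 8.82 in sickle. All 3 sickle arrays lay below the control arrays, with replicate 3 the lowest. The means were 9.90 ± 0.03 and 9.28 ± 0.40 (SD, n = 3), a 1.54-fold difference (-0.63 ± 0.19, SE, 95% interval -1.06 to -0.19). This did not pass (limma adjusted p = 0.446), and without sickle replicate 3 the difference was -0.40 (adjusted p = 0.281). The 9 cardiomyocyte markers had medians of 0.049, 0.004 and -0.156 relative to the control mean in sickle replicates 1, 2 and 3, with 7 of 9 lower by the mean. Their summed linear level was 66000 to 73150 in sickle and 71530 to 72000 in control, and their part in the Rpl3l values was not tested.

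Rpl3, the partner that Rpl3l replaces, was represented by 3 rows that disagreed. The brightest had 8.87, 9.44 and 8.96 in control and 8.49, 8.94 and 8.70 in sickle, with overlap and a difference of -0.38 ± 0.18 (limma adjusted p = 0.600); without control replicate 2 the difference was -0.20. The other rows differed by -0.0071 and 0.23. The Rpl3l minus Rpl3 difference within an array was 1.08, 0.44 and 0.93 in control and 1.02, 0.57 and 0.12 in sickle, so the groups overlapped (change -0.25, exact two-sided permutation p = 0.6). With the mean over the 3 rows of Rpl3 the change was -0.57 (exact permutation p = 0.1), and with the brightest row but without sickle replicate 3 it was -0.02 (exact permutation p = 1).

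In all, 6 paralogue pairs were compared this way, and 3 against 3 arrays allow no p below 0.1. The Rps4l minus Rps4x difference was -3.65, -3.38 and -3.67 in control and -3.84, -4.27 and -4.16 in sickle. All sickle values were below all control values, and the change was -0.52 (exact permutation p = 0.1, adjusted p = 0.3 over the 6 pairs). The Rps27l minus Rps27 difference was 1.58, 1.35 and 1.28 in control and 1.21, 1.16 and 0.88 in sickle, also without overlap (change -0.32, exact permutation p = 0.1, adjusted p = 0.3). Rps27l is known as a p53-inducible gene, and neither it (-0.14 ± 0.09) nor Rps27 (0.18 ± 0.16) was without overlap by itself. The Rps27 difference was 0.05 without sickle replicate 3 and 0.06 without control replicate 1. The pairs Rpl22l1 and Rpl22 (change 0.02), Rpl39l and Rpl39 (-0.03) and Rpl7l1 and Rpl7 (0.02) overlapped, each with an exact permutation p of at least 0.9.

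The testis paralogue Rpl10l was dim, with 3.36, 3.23 and 3.25 in control and 2.89, 3.06 and 3.00 in sickle. The groups did not overlap, and the difference was -0.29 ± 0.09 (limma adjusted p = 0.486). Among the 7 paralogues 5 were lower and 2 higher by the mean, with a median of -0.14. Rpl22l1 (0.05 ± 0.10), Rpl39l (-0.07 ± 0.20) and Rpl7l1, which acts in ribosome assembly (0.07 ± 0.10), differed by less than the larger of their SDs within a group.

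Rpl5, which carries a small ribosomal RNA into the large subunit and binds Mdm2 when assembly fails, had 6.37, 6.39 and 6.09 in control and 6.74, 6.44 and 6.67 in sickle. The sickle values were all higher, but replicate 2 was only just above the highest control value. The difference was 0.33 ± 0.13 (limma adjusted p = 0.551). A second, brighter row shared by Rpl5 and a pseudogene went the other way, with 8.53, 8.33 and 8.22 in control and 8.28, 7.84 and 8.58 in sickle (difference -0.13). Rows of one gene therefore did not give one direction for Rpl5.

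Rplp0, the base of the stalk that recruits translation factors, had 5.56, 5.70 and 5.57 in control and 5.21, 5.19 and 5.48 in sickle. All sickle values were lower, with replicate 3 closest to control (difference -0.32 ± 0.11, limma adjusted p = 0.519). Rps29, a zinc-binding protein of the small subunit, had 6.89, 6.97 and 6.86 in control and 7.10, 6.996 and 7.10 in sickle, without overlap (0.16 ± 0.09, adjusted p = 0.648). Rps18, near the head of the small subunit, had 7.18, 6.89 and 6.85 in control and 6.82, 6.42 and 6.84 in sickle. The groups came close to touching, and the difference was -0.28 ± 0.15 (adjusted p = 0.625), while its second row differed by -0.05. Without sickle replicate 2 the Rps18 difference was -0.14, and without control replicate 1 it was -0.18.

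The 3 symbols that are not canonical proteins or paralogues were all lower by the mean. Rps19bp1 had 7.01, 7.09 and 7.04 in control and 6.88, 6.87 and 6.89 in sickle, without overlap and with a small spread in both groups (-0.16 ± 0.08, limma adjusted p = 0.621). Rpl32l was near the bottom of the scale, with 3.00, 2.66 and 3.26 in control and 2.64, 2.51 and 2.4997 in sickle (-0.42 ± 0.16, adjusted p = 0.535; -0.28 without control replicate 3). Rps23rg1 differed by -0.14 ± 0.10, with overlap (-0.09 without sickle replicate 2).

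**Figure D3:**
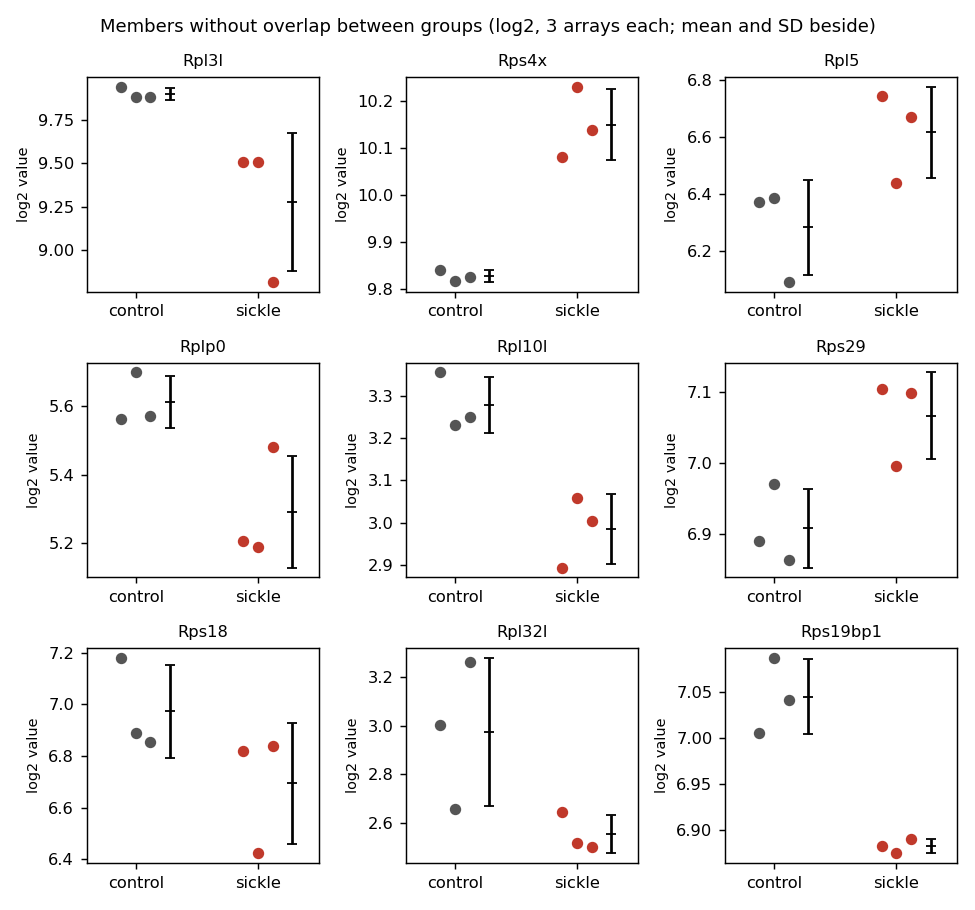
Log2 values by group for the 9 genes whose sickle and control arrays do not overlap, with each array a point and the mean and SD beside them; each panel has its own scale. Rps4x and Rps19bp1 have the widest gaps against their spread, and the groups of Rps18 nearly touch.

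Rows of one gene did not always give the same sign, which limits statements on single genes. Ribosomal protein genes have many processed copies in the genome, and probes can match several of them. Of the 45 genes, 13 had more than 1 row. The differences of their rows had opposite signs in 6 of 13, with a median range of 0.13 between rows. The median SE of a difference among the 45 genes was 0.11, so rows near 0 can differ in sign within their error. Rpl19, with 0.06 and -0.03, was such a case. The share with opposite signs over all 465 genes with more than 1 row was not computed. Rpl41, which encodes a very short basic protein, had 0.18 in the brighter row (0.08 without sickle replicate 3) and -0.17 in the dimmer one. The dim rows of Rps24 (0.26) and Rps3a1 (-0.29) departed from bright rows that were near 0 (-0.05 and -0.01). A pair of Rps19 rows held identical values.

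**Figure D4:**
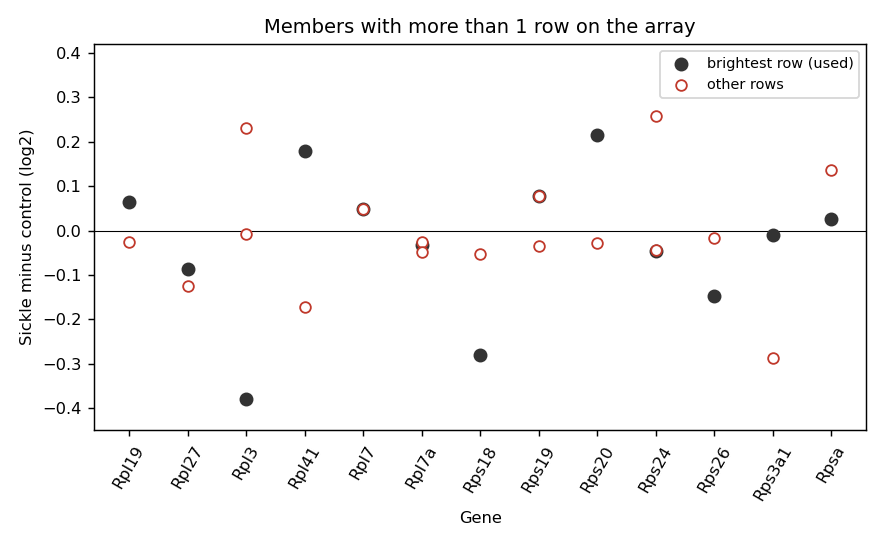
Sickle minus control difference on the log2 scale of every row of the 13 genes with more than 1 row; filled points are the brightest rows, open points the others. Rpl3 spans the widest range, from -0.38 to 0.23, and Rpl7 and Rpl7a the narrowest.

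Start-site sequence was compared because the tract of C and T bases is the feature that ribosomal protein mRNAs share. RefSeq windows (GRCm38.p6, 250 bases before to 50 after each annotated gene start) matched 37 of the 45 genes by symbol, and the start farthest upstream was used. Between bases -40 and +50 on the coding strand, the longest run of C and T reached at least 8 bases in 20 of 28 canonical genes (71.4%), in 4 of 6 paralogues and in 32.4% of all 27025 genes with a window. Shown first are the 4 genes with the longest runs, then the 4 canonical genes or paralogues with the largest differences between sickle and control among those with a window, which leaves out Rpl3. Capitals mark the longest run.
Rpl7a, chr2:26910788-26910817, plus strand: cacaaTTCCCTCTTCTTTCTTTCTCCagca
Rpl35, chr2:39005115-39005144, minus strand: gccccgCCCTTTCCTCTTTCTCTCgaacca
Rpl4, chr9:64173405-64173434, plus strand: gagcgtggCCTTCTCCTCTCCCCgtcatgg
Rps23, chr13:90923142-90923171, plus strand: tgggtccttcctgcaCCTCCTCTCTCTTTC
Rpl3l, chr17:24727846-24727875, plus strand: tggtggggaggCCCCTTCCTaacctgcagg
Rps4x, chrX:102189342-102189371, minus strand: cgcgcagcctccgaccctaaTTTCTTCgtt
Rpl5, chr5:107900497-107900526, plus strand: gcctacagccaCTCTTTCTCacgtcgcttg
Rplp0, chr5:115559466-115559495, plus strand: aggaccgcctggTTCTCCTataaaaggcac
The runs of the first set were 15 to 21 bases long and those of the second 7 to 9. Counted from the annotated start, the run began at base -14 in Rpl7a and -7 in Rpl35, at 27 in Rpl4 and at 36 in Rps23, where it reached the end of the window. In the second set it began at 32 in Rpl3l, 41 in Rps4x, -20 in Rpl5 and 12 in Rplp0, so not every run lies at the 5′ end where the known tract sits. An annotated start can lie some bases from the start a tissue uses, so these are descriptions of the windows. The letters CCGGAAG, a core bound by ETS factors, were found on either strand in 12 of 28 canonical windows of 300 bases (42.9%) and in 9.1% of all windows. The letters TATAAA were found in 4 of 28 (14.3%, against 14.2%), Rplp0 among them, and AAGATGG in 5 of 28 (17.9%, against 6.5%). Neither CCGGAAG nor TATAAA was found in the Rpl3l or the Rps4x window.

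Other genes of translation were taken from 7 lists. Of 103 genes tested, 0 passed in limma after adjustment over all genes, and 11 had an unadjusted p under 0.05, 3 higher and 8 lower, beside 8.69% of all genes (4.30% higher and 4.38% lower). Fau, whose product holds a small subunit protein, had 9.40, 9.58 and 9.62 in control and 9.59, 9.40 and 9.84 in sickle, and the groups overlapped. Of 16 further mRNAs known for the same 5′ tract, 10 were higher and 6 lower by the mean, with a median of 0.02. Pabpc1, the poly(A)-binding protein gene of that list, had 6.08, 6.08 and 6.10 in control and 6.69, 7.13 and 7.24 in sickle. The groups did not overlap and the difference was 0.93 ± 0.15, but it did not pass (limma adjusted p = 0.106; 0.0195 without sickle replicate 1).

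Of 28 ribosome biogenesis genes, 22 were lower by the mean, beside 51.6% of all genes, with a median of -0.07. Of these, 0 passed and 3 had an unadjusted p under 0.05, all lower, where 4.38% of all genes were lower at that p. Bysl, which acts in small subunit assembly, had 7.52, 7.67 and 7.54 in control and 7.35, 7.31 and 7.34 in sickle, without overlap (-0.24 ± 0.09, limma adjusted p = 0.537). The median of the list was -0.071, -0.039 and -0.17 in sickle replicates 1, 2 and 3. Initiation factor genes had a median of -0.05 (11 of 20 lower), and Eif3m, a subunit of the factor that prepares the small subunit, differed by -0.34 ± 0.09 (adjusted p = 0.413). RNA polymerase I genes, which serve ribosomal RNA synthesis, had a median of -0.05 (9 of 15 lower), with Znrd1 at -0.43 ± 0.12 (adjusted p = 0.437). Of 15 mTOR pathway and tract regulators 8 were lower (median -0.05), with Tsc1, a brake on mTOR, at 0.24 ± 0.10. Of 8 targets of p53, which responds to failed ribosome assembly, 6 were higher (median 0.11), with Eda2r at 0.46 ± 0.17 and at 0.31 without sickle replicate 3. The list median was 0.057, 0.0655 and 0.306 in sickle replicates 1, 2 and 3, so it was largest in the array that stood apart. Cdkn1a and Bax, of the 10 targets listed, had no row with a single symbol.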

How the data were processed

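The table was deposited by the authors as log2 values after RMA, per the submitters' processing notes, which give no version or settings. RMA corrects background, gives all arrays 1 distribution and summarises probes, so a shift shared by all genes cannot be seen. The range of the values fits that scale. Of 25293 rows, 22030 had 1 symbol in the platform annotation, 685 several and 2578 none. Genes with 1 symbol were fitted in limma 3.58.1 (R 4.3.3) with group as the only term, two-sided, with Benjamini-Hochberg adjustment at 0.05 over 21506 genes and no filter on dim genes. The fit had 4 residual and 3.61 prior degrees of freedom. The procedure was tested on simulated data. The members, lists and classes were chosen with earlier results of these data known. Named genes are up to 8 members on each side without overlap, members at an unadjusted p under 0.01, paralogues, other symbols taken by the rule, a fixed set of members, and the smallest p of each translation list; Rpl4, Rps24 and Rps3a1 were named after their values were seen. Alternatives changed the variance model, filter, normalisation, array weights, block, rows and arrays used. The labels do not state that replicate numbers pair mice, so the main fit had no block. Correlations of same-numbered deviations were 0.11, -0.046 and 0.054, which cannot settle whether mice were paired. Arrays give no depth; their number limits precision. No scan date or batch is given in the sources used here. Figures were drawn with matplotlib 3.10.9.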

Additional observations from a re-analysis of the deposited data

How the results depend on the processing

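With limma, 0 of 45 genes passed in all 15 alternatives and the subunit medians moved by less than the SD between arrays in the alternatives run. These SDs, 0.066 for the large and 0.079 for the small subunit, exceeded the medians, so a change of sign also fell within them. The alternatives of variance model and block could not move the medians. Leaving out single arrays, the large subunit median ranged from -0.064 to 0.022, the small from -0.0093 to 0.096 and the large minus small difference from -0.083 to -0.031; the outer values of both medians came without sickle replicates 3 and 2. Genes at an unadjusted p under 0.05 numbered 3 with dim genes dropped, 3 to 6 without single arrays and 7 with the replicate block. Genes without overlap numbered 10 to 17 without single arrays (17 without sickle replicate 2), since fewer arrays separate more easily. The shares over all genes in these settings were not computed, so these counts cannot be set against a background. The replicate block changed no call. Translation list calls ranged from 0 to 1 without single arrays, the 1 being Pabpc1 without sickle replicate 1. The pair changes ranged from -0.062 to 0.068 for Rpl22l1 and Rpl22, -0.22 to 0.25 for Rpl39l and Rpl39, and -0.048 to 0.072 for Rpl7l1 and Rpl7. Array weights turned Rpl38 to -0.036 and Rpl39l to 0.076. Without single arrays the differences spanned 0 for Fau (-0.036 to 0.18), Rpl22 (-0.012 to 0.071), Rpl38 (-0.10 to 0.20), Rpl39 (-0.13 to 0.054), Rpl39l (-0.18 to 0.17), Rps19 (-0.0016 to 0.15) and Rpsa (-0.021 to 0.098). The cause of these turns was not tested.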

Other observations

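Several array rows carry more than 1 symbol and so lie outside the rule, yet hold ribosomal protein genes. The bright row shared by Rpl12, of the stalk base, and a predicted gene had 10.82, 10.77 and 10.86 in control and 10.74, 10.44 and 10.93 in sickle. The bright row shared by Rpl26, known to bind p53 mRNA, and a predicted gene had 10.62, 10.69 and 10.54 in control and 10.44, 10.21 and 10.95 in sickle. In both rows sickle replicate 2 held the lowest of the 6 values and sickle replicate 3 the highest, and the groups overlapped (differences -0.11 and -0.08). Of 4 rows with a pseudogene symbol, Rps15a-ps4 had groups without overlap (3.56, 3.51 and 3.59 in control, 3.40, 3.30 and 3.29 in sickle; limma over all rows, adjusted p = 0.567). Rps19-ps3 had 5.61 in sickle replicate 2 and 6.51 to 6.76 in the other arrays.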
